A study of Mus musculus with 28 samples.

Results

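Genes that mark the 2 main neuron types of the cerebellar cortex were read in single mouse hemibrains. The 10 genes were chosen by symbol from the 53801 genes of the deposited count table: Pcp2, Car8, Slc1a6, Itpr1 and Calb1 for Purkinje cells, and Cbln3, Cbln1, Neurod1, Zic1 and Zic2 for granule cells. Of these 10, 9 had enough counts to be tested, and Zic2 did not.

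Granule cells are the small, densely packed excitatory neurons of the cerebellar cortex, and their axons, the parallel fibres, contact the dendrites of Purkinje cells. Purkinje cells are the large inhibitory output neurons of the cortex, and their signalling through IP3 receptors and calcium-binding proteins is unusually strong. Cerebellins secreted by granule cells bridge neurexins on the parallel fibre to the delta glutamate receptor on the Purkinje cell.

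The study held 28 C57Bl/6J mice, 7 to a group. Double knockout (DKO) mice, which lack Grn (progranulin) and Tmem106b (a lysosomal membrane protein), and wildtype (WT) mice were each given saline (0.9% NaCl) or a vector named AAV(L):bPGRN, giving the groups WT saline, WT AAV, DKO saline and DKO AAV. The vector is an AAV directed to the liver whose product joins human progranulin to 8D3, an scFv that binds the transferrin receptor of mice. It was given into the tail vein at 6 weeks of age at 1.3e+13 vector genomes per kg, and tissue was taken 9 to 10 weeks later, when the mice were 15.0 to 16.0 weeks old. There were 4 males among the 7 mice of either WT group and 3 among those of either DKO group, and all 4 batches held mice of all groups. One hemibrain per mouse, cerebellum included and olfactory bulb left out, was powdered, and tags from the 3' ends of polyadenylated RNA were counted with molecular identifiers. Library totals ran from 1164637 to 2389815 counts. The unit of a level is CPM, with library sizes adjusted by TMM factors, one tag standing for one molecule whatever its length. A gene is called where the quasi-likelihood test of edgeR gave an adjusted p (Benjamini-Hochberg, 11123 genes) under 0.05. In a bulk sample, fewer cells of a type and less RNA per cell cannot be told apart.

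The tissue label was borne out in 26 of the 28 libraries, in which all 9 tested genes were readily counted. The other 2 were WT saline replicate 6, which was below all other mice of its group for the tested genes except Calb1, and WT AAV replicate 7, which was so for all 9. In them, 9 and 10 of 11 tested granule reference genes, a list without any of the 10 genes above, were below all other 6 mice of the group, with medians of 57.1% and 60.3% of the other mice's median. Of 11 tested Purkinje reference genes, 8 and 9 were below all other 6 mice, with medians of 49.2% and 63.4%. Gabra6, the granule cell GABA receptor subunit, had 1 count in WT saline replicate 6 and 11 counts in WT AAV replicate 7. The summed level of 9 cortical marker genes was 154% and 129% of the median of the other 6 mice in these libraries. Sums for other regions went both ways. They were 151% and 137% for the olfactory bulb list, 121% and 84.1% for thalamus, and 116% and 99.4% for striatum. Dentate gyrus stood at 90.5% and 77.9%, and brainstem at 54.5% and 35.5%, the brainstem sums lying within the range of the other mice. One more library, DKO saline replicate 2, stood apart in other lists. Its cortical sum of 316 CPM was the lowest of the DKO saline group, as was its sum over 9 striatal genes, 267 CPM. Its sums over 11 brainstem genes (150 CPM) and 8 reactive microglial and astrocytic genes (3630 CPM) were the highest of that group. Results are therefore given with and without these libraries.

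The promoters of the genes that all but vanished in the 2 low libraries are shown first, with that of Slc1a6, which kept more. RefSeq starts were matched for 5 of the 10 genes (Neurod1, Pcp2, Zic1, Slc1a6 and Cbln3), and each window runs from 250 bases before to 50 bases after the start on GRCm38.p6. Pcp2 has several annotated starts, and its most upstream window is shown (chr8:3625498-3625797, minus strand), beside those of Cbln3 (chr14:55884207-55884506, minus strand) and Slc1a6 (chr10:78780246-78780545, plus strand). Capitals mark matches to AGGTCA, the core bound by nuclear receptors such as RORA, to the E-boxes CAGATG and CAGCTG, which proneural factors such as NEUROD1 can bind, or to CAGCAGG, a core bound by ZIC proteins.
Pcp2: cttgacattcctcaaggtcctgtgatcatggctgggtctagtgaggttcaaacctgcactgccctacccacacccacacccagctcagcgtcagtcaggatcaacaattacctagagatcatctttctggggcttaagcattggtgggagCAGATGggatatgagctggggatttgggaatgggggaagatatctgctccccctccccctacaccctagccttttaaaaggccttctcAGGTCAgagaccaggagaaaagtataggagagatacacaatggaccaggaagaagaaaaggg
Cbln3: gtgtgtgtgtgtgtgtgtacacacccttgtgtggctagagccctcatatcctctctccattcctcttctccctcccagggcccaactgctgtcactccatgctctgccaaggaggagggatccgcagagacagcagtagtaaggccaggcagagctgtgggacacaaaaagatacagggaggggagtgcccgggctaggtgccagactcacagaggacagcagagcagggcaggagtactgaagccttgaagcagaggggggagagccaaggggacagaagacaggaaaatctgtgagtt
Slc1a6: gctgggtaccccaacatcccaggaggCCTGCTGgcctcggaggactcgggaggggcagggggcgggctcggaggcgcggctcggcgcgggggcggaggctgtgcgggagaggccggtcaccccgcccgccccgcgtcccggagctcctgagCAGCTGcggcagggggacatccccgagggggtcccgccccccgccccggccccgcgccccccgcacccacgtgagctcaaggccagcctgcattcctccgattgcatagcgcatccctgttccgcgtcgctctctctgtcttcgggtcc
In the Pcp2 window CAGATG starts 100 bases and AGGTCA 12 bases before the start. In the Slc1a6 window CAGCAGG lies on the other strand 224 bases before the start, and CAGCTG 99 bases before it. None of these motifs nor TATAAA, searched on the gene strand only, was found in the windows of Cbln3, Neurod1 or Zic1, which says only that these letters are not there. Searched on both strands, AGGTCA stood in 16.3% of all 32851 promoter windows, CAGCTG in 16.3%, CAGATG in 17.2% and CAGCAGG in 10.5%, while TATAAA stood in 8.32%.

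The steepest marker was Pcp2 (ENSMUSG00000004630, chromosome 8, 3623371 to 3625545, minus strand), a modulator of G protein signalling that is nearly restricted to Purkinje and retinal bipolar cells. In WT saline it ran from 0.673 CPM (replicate 6) over a median of 67.3 to 122, and in WT AAV from 4.32 (replicate 7) over 67.4 to 130. In DKO saline it ran from 25.8 over 49.5 to 109, and in DKO AAV from 32.4 over 53.8 to 93.2. The groups overlapped throughout, and the 2 lowest mice were far below the rest of their own groups. In WT saline replicate 6, Pcp2 was at 0.984% of the median of the other 6 mice (1 count, exact 95% Poisson interval 0.0249% to 5.48%), and in WT AAV replicate 7 at 5.76% (5 counts, 1.87% to 13.4%). The gene lies within Pet100 on the opposite strand, which had 61 and 41 counts in the same libraries.

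Car8 (ENSMUSG00000041261, chromosome 4, 8143362 to 8239041, minus strand) encodes a carbonic anhydrase-related protein that binds the IP3 receptor. It ran from 18.2 over 149 to 230 CPM in WT saline and from 28.5 over 156 to 276 in WT AAV. It ran from 94.8 over 153 to 252 in DKO saline and from 120 over 227 to 258 in DKO AAV. The DKO AAV median was the highest of the 4, though all groups overlapped. The 2 low libraries kept 11.2% and 17.1% of the median of the other mice of their groups.

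Slc1a6 (ENSMUSG00000005357, chromosome 10, 78780496 to 78814765, plus strand) encodes EAAT4, the glutamate transporter of Purkinje cell spines. Its level was low in this tissue, from 10.1 over 20.2 to 31.0 CPM in WT saline and from 7.77 over 30.2 to 42.2 in WT AAV. It ran from 12.8 over 26.4 to 35.8 in DKO saline and from 22.4 over 27.9 to 40.8 in DKO AAV. The counts of 9 to 91 per library limit what can be read from this gene. The 2 low libraries kept 44.9% (15 counts) and 24.3% (9 counts).

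Itpr1 and Calb1 are strong in Purkinje cells but are also made in forebrain neurons, and they separated from the other 3 here. Itpr1 (ENSMUSG00000030102, chromosome 6, 108213096 to 108551109, plus strand), the type 1 IP3 receptor, ran from 323 over 518 to 646 CPM in WT saline and from 414 over 594 to 698 in WT AAV. It ran from 252 over 454 to 629 in DKO saline and from 441 over 511 to 717 in DKO AAV. Its lowest mouse was not one of the low-cerebellum libraries but DKO saline replicate 2. The low libraries kept 61.2% and 69.2%. Calb1 (ENSMUSG00000028222, chromosome 4, 15881264 to 15908064, plus strand), the calcium buffer calbindin, ran from 136 over 167 to 190 in WT saline and from 121 over 177 to 302 in WT AAV. It ran from 122 over 209 to 262 in DKO saline and from 217 over 261 to 324 in DKO AAV. WT saline replicate 6 kept 91.2% of Calb1, within the range of its group, and WT AAV replicate 7 kept 64.9%. Calb1 was the only gene of the 9 whose DKO AAV mice all lay above all WT saline mice. How often this holds among all genes tested was not counted, so the separation cannot be ranked against them.

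Among granule cell genes, Cbln3 (ENSMUSG00000040380, chromosome 14, 55878913 to 55884392, minus strand), a cerebellin made almost only by granule cells, was the steepest. It ran from 2.69 over 195 to 220 CPM in WT saline and from 15.5 over 212 to 268 in WT AAV. It ran from 73.8 over 125 to 260 in DKO saline and from 153 over 233 to 304 in DKO AAV. The low libraries kept 1.32% (4 counts, 0.358% to 3.37%) and 6.80% (18 counts, 4.03% to 10.7%), close to the shares of Pcp2.

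Cbln1 (ENSMUSG00000031654, chromosome 8, 87468405 to 87472609, minus strand), the cerebellin that holds the parallel fibre synapse together, ran from 12.1 over 98.8 to 132 CPM in WT saline and from 20.7 over 126 to 151 in WT AAV. It ran from 52.7 over 87.3 to 151 in DKO saline and from 88.0 over 153 to 186 in DKO AAV. Neurod1 (ENSMUSG00000034701, chromosome 2, 79452521 to 79456751, minus strand), a transcription factor of granule cell differentiation, ran from 12.1 over 94.2 to 132 in WT saline and from 25 over 118 to 130 in WT AAV. It ran from 48.9 over 75.6 to 126 in DKO saline and from 85.5 over 126 to 155 in DKO AAV. Both genes had their lowest group median in DKO saline and their highest in DKO AAV, with 4 of 7 and 5 of 7 DKO saline mice below all DKO AAV mice. For Calb1 it was 4 of 7 as well, and how often this holds among all genes tested was not counted. The low libraries kept 10.9% and 16.4% of Cbln1, and 11.6% and 21.1% of Neurod1. Cbln1 overlaps the opposite-strand lincRNA Gm2694, which had 832 counts in all against 4747, and Neurod1 lies within Cerkl on its own strand, which had 21 against 4084.

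Zic1 (ENSMUSG00000032368, chromosome 9, 91358058 to 91365810, minus strand), a zinc finger factor of granule cells that is also present in other midline and ventral forebrain neurons, ran from 148 over 274 to 346 CPM in WT saline and from 130 over 289 to 357 in WT AAV. It ran from 179 over 245 to 352 in DKO saline and from 264 over 326 to 466 in DKO AAV. The low libraries kept 51.7% and 41.4%, far more than of Cbln3. Zic4, which overlaps Zic1 on the opposite strand, had 1019 counts in all against 12030. Zic2 (ENSMUSG00000061524, chromosome 14, 122475435 to 122479852, plus strand), a close relative of Zic1, had 0 to 7 counts per library and 73 in all, too few for the filter. Fitted with no filter on low counts, it stood at 1.32 ± 0.51 (log2 fold change, adjusted p = 0.173) in DKO AAV against DKO saline, from 0.963 ± 0.769 to 2.78 ± 1.79 CPM (SD, n = 7), and was not called.

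**Figure D1:**
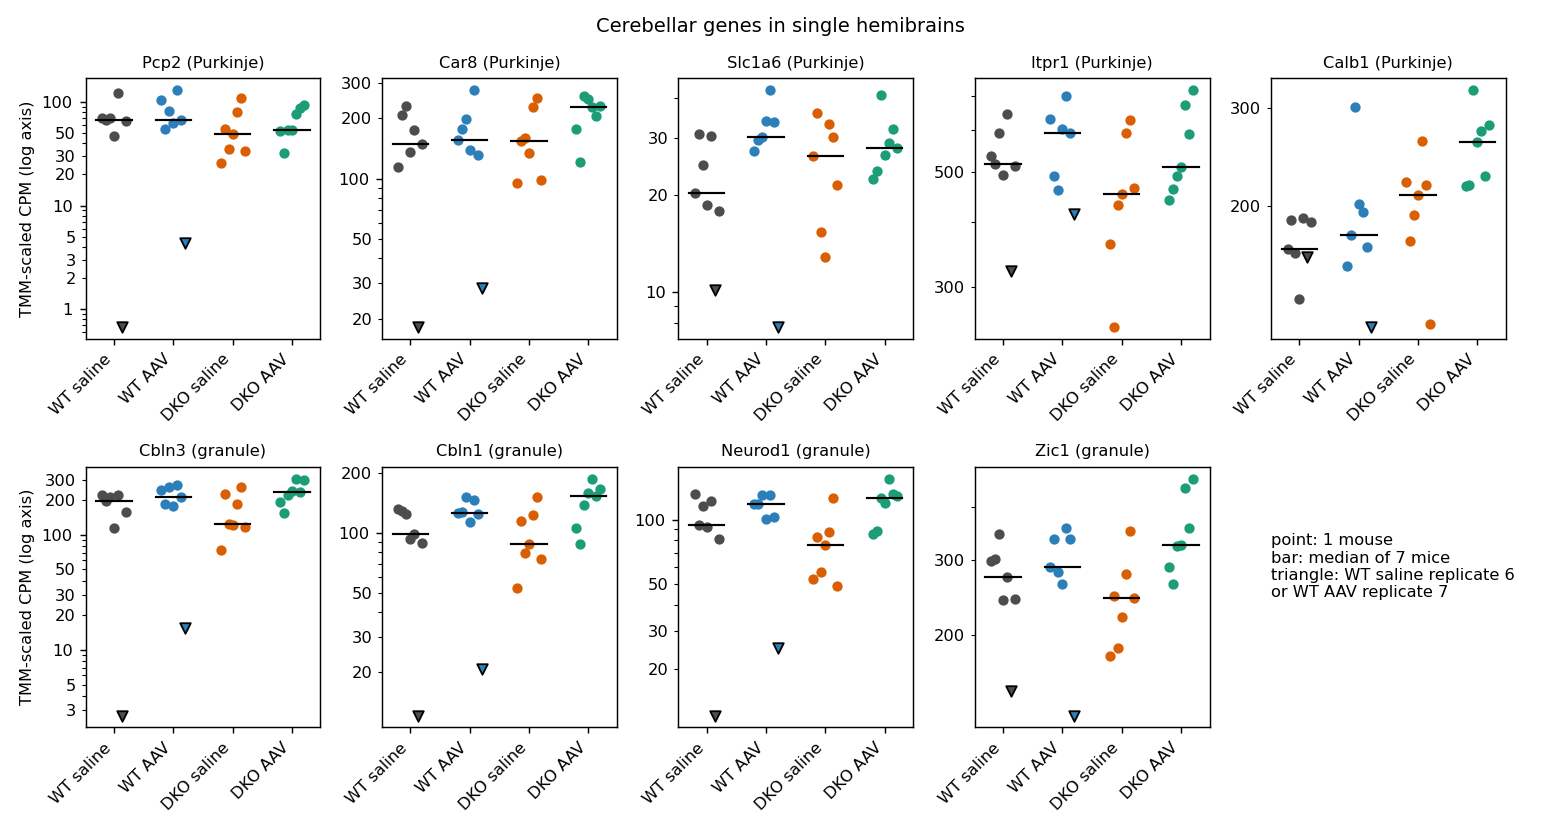
CPM of the 9 tested genes on log axes in each of 28 mice, with a bar at each group's median; triangles are WT saline replicate 6 and WT AAV replicate 7. The triangles sit at 0.673 and 4.32 CPM for Pcp2 and at 2.69 and 15.5 for Cbln3, whereas for Calb1 they sit at 161 and 121, in or near the range of the other mice.

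**Figure D2:**
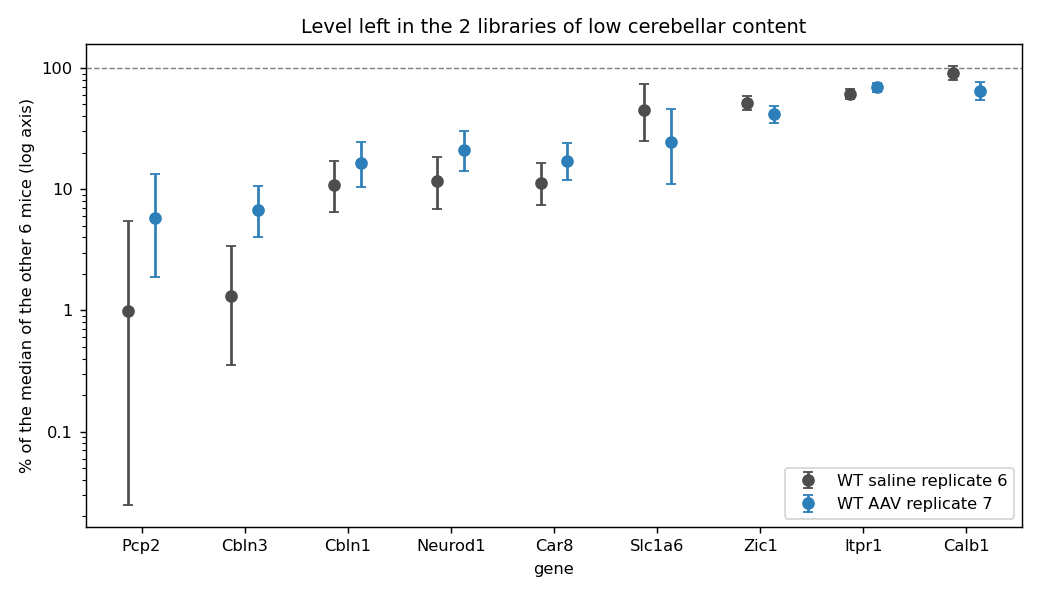
Level of each gene in WT saline replicate 6 and WT AAV replicate 7 as a percentage of the median of the other 6 mice of the same group (log axis), with exact 95% Poisson intervals that cover counting error only; the dashed line is 100%. The genes run from 0.984% and 5.76% for Pcp2 to 91.2% and 64.9% for Calb1, and Purkinje and granule cell genes are mixed along the order.

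Setting the genes by what was left in the low libraries did not separate the cell types. Pcp2 and Cbln3 kept under 10% in both libraries, Cbln1, Neurod1 and Car8 kept 10.9% to 21.1%, and Slc1a6, Zic1, Itpr1 and Calb1 kept 24.3% to 91.2%. The within-group SD of log2 CPM followed a similar order, from 1.33 for Pcp2 and 1.32 for Cbln3 to 0.33 for Itpr1 and 0.30 for Calb1. Without the 2 libraries it was 0.55 for Pcp2, 0.43 for Cbln3 and Car8, 0.36 for Cbln1, 0.33 for Neurod1 and 0.27 for Zic1.

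Among the other 26 mice the granule cell genes had the highest r values with each other, and pairs of Purkinje cell genes had values like those of mixed pairs. Pairs of granule cell genes had a median Pearson r of 0.83 for deviations from group means (6 pairs, 0.75 to 0.91), pairs of Purkinje cell genes 0.42 (10 pairs, 0.10 to 0.70) and mixed pairs 0.46 (20 pairs, 0.12 to 0.85). Pcp2 had its highest r with Cbln3 (0.85) and Neurod1 (0.80), above that with Car8 (0.70). Over all 28 mice these medians were 0.94, 0.55 and 0.76. The values describe mice that share libraries and depth, and no test was made of their order.

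To read cerebellar content from genes outside the set, an index was made from the 11 granule and 11 Purkinje reference genes. It is their mean log2 CPM, and each list also formed its own index. Its genes fell unevenly in the low libraries. In WT saline replicate 6 the granule reference genes kept 0.931% to 91.8% and the Purkinje ones 5.67% to 108%. In WT AAV replicate 7 they kept 4.95% to 87.3% and 9.14% to 112%. A shift of the index is thus not shown to be one of cerebellar content alone. The granule list holds Zic4, which overlaps Zic1 and kept 75.6% and 39.6% in the 2 low libraries. Whether strand was used in counting is not given, so the index may not be free of Zic1 tags. Of 20 relations between a gene and an index, Zic1 followed the granule index most closely over the 26 mice (r = 0.91, rho = 0.86, permutation p = 1e-05 and 2e-05, adjusted 4e-05 and 0.0001). Cbln1 and Neurod1 followed it at r = 0.84 and 0.81 (both permutation p = 1e-05, the smallest 100000 resamples can give). Each of these 3 had a lower r with the Purkinje index (0.75, 0.75 and 0.74). For Cbln3 both were 0.78. Car8 and Pcp2 went the other way, with r = 0.87 and 0.85 against the Purkinje index (rho 0.86 and 0.81, both permutation p for r = 1e-05) and 0.70 and 0.77 against the granule index. Slc1a6 had r = 0.59 with the Purkinje index (rho = 0.60, permutation p = 0.00794, adjusted 0.0113) and 0.45 with the granule index. Itpr1 stood at 0.55 and 0.58. Calb1 had r = 0.39 with the Purkinje index (rho = 0.40, permutation p = 0.0724, adjusted 0.0852) and 0.14 with the granule index (permutation p = 0.526), so no relation to cerebellar content was shown for it without the low libraries. Over all 28 mice r was 0.48 for Calb1 with the Purkinje index (permutation p = 0.0161) and 0.87 to 0.95 for Pcp2, Car8, Cbln3, Cbln1, Neurod1 and Zic1 with either index, values that rest partly on those 2 libraries. The differences between r values were not tested.

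**Figure D3:**
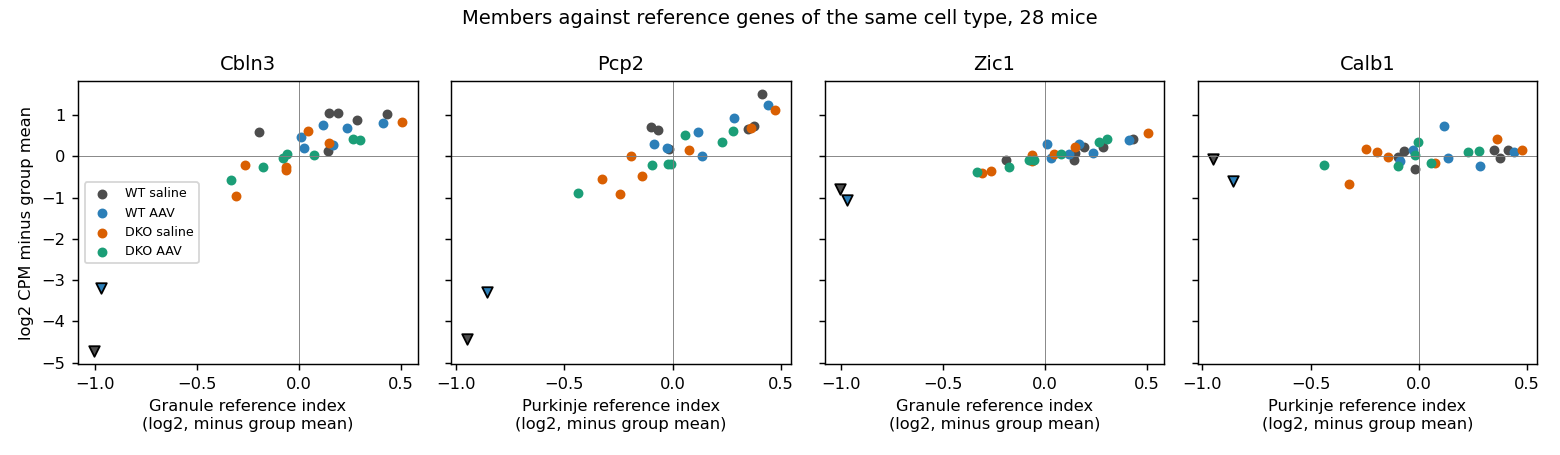
Log2 CPM of Cbln3, Pcp2, Zic1 and Calb1 against the reference index of their own cell type, both as deviations from group means, for 28 mice; triangles are the 2 low libraries. Over the other 26 mice r was 0.78, 0.85, 0.91 and 0.39, Calb1 having the lowest.

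By a rule that compared 10632 genes, those whose levels followed the mean of the tested granule cell genes most closely over 28 mice were Crtam (r = 0.956), Gabra6 (0.946), Cnpy1 (0.930), Chn2 (0.916) and Arhgef33 (0.909). For the Purkinje cell genes they were Crtam (0.944), Arhgef33 (0.941), Gabra6 (0.938), Chn2 (0.935) and Rgs8 (0.918). Without the 2 low libraries the granule list became Crtam (0.831), Nrep (0.829), Arhgef33 (0.810), Inpp5a (0.807) and Chn2 (0.797). The Purkinje list became Rgs8 (0.904), Arhgef33 (0.903), Gng13 (0.852), Inpp5a (0.821) and Chn2 (0.814). Gabra6 and Cnpy1 were thus in the lists only while the 2 low libraries were.

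By group medians the cerebellar index was lowest in DKO saline. Grin2c, a granule reference gene that was itself called lower in DKO saline, is part of the index. Relative to the WT saline median, the DKO saline median was -0.32 on the log2 scale, against 0.14 for WT AAV and 0.16 for DKO AAV. The WT mice ran from -1.04 to 0.34 with saline and from -0.89 to 0.45 with vector, and the DKO mice from -0.47 to 0.30 and from -0.19 to 0.49. The DKO saline shift was in the granule reference genes more than in the Purkinje ones, with medians of -0.47 and -0.13. The Purkinje index minus the granule index had a median of 0.24 in DKO saline (range -0.06 to 0.42) against 0.00 in WT saline (-0.34 to 0.21), -0.01 in WT AAV (-0.11 to 0.10) and -0.01 in DKO AAV (-0.10 to 0.09). These values are a description, and the ranges of DKO saline and the other groups overlap. Among the 10 genes themselves, the mean log2 of the 5 Purkinje minus that of the 4 tested granule genes had medians of 0.03 in DKO saline and -0.14 in DKO AAV relative to WT saline, within the spread of the groups.

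The first comparison, DKO saline against WT saline, reads the genotype without treatment. It shares the DKO saline mice with the second comparison. None of the 9 genes was called, beside 6.9% of all genes tested. The granule genes stood at log2 fold changes of 0.07 ± 0.41 (SE) for Cbln3, 0.06 ± 0.31 for Cbln1, -0.22 ± 0.30 for Neurod1 and -0.14 ± 0.19 for Zic1, and the Purkinje genes between -0.27 ± 0.16 (Itpr1) and 0.28 ± 0.24 (Slc1a6). The median over the 9 was 0.06, against 0.00343 over all genes. Of 11 granule reference genes 1 was called lower, with a list median of -0.31, and without the 2 low libraries 3 were, with a median of -0.50. Within the 4 batches the difference of Neurod1 ran from -1.30 to 1.29 and was negative in all but 1. The positive value was that of batch 4, where WT saline replicate 6 was 1 of 2 WT saline mice.

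Leaving out the 2 low libraries turned this picture. Both are WT and were set apart by low values of these genes, so leaving them out raises WT means and narrows the spread. The signs and adjusted p values of that fit are not free of this choice. The median over the 9 genes became -0.36, 7 of 9 values were negative, and 2 genes were called lower in DKO saline, beside 4.46% of all genes called lower and 8.77% called in either direction. Neurod1 was lower by a log2 fold change of -0.59 ± 0.18 (adjusted p = 0.0346) and Itpr1 by -0.46 ± 0.13 (adjusted p = 0.0192). Zic1 at -0.36 ± 0.13 (adjusted p = 0.0794), Cbln3 at -0.36 ± 0.22, Cbln1 at -0.32 ± 0.18 and Pcp2 at -0.65 ± 0.27 (adjusted p = 0.141) were not called. Without DKO saline replicate 2 as well, Neurod1 alone was called, at -0.65 ± 0.19 (adjusted p = 0.0315, beside 3.3% of all genes called lower), and Itpr1 was -0.35 ± 0.12 (adjusted p = 0.0819), so its call rests on that mouse of low cortical content. With the cerebellar index as a term and all 28 mice, Neurod1 stood at 0.08 ± 0.15 and Zic1 at -0.02 ± 0.08, neither called. In that fit Car8 was the only gene called, higher at 0.62 ± 0.14 (adjusted p = 0.00354), beside 4.1% of all genes called higher. Without the 2 low libraries the fit with the index called none of the 9, beside 4.43% of all genes. With only the granule index as the term, Car8, Cbln1 and Cbln3 were called higher, beside 3.48% of all genes, and with only the Purkinje index Itpr1 was called lower, beside 4.11%. Without batch 4, Zic1, Neurod1, Pcp2 and Itpr1 were called lower, beside 5.23%. Batch 4 holds both low libraries, so this fit leaves them out as well and is not separate from the fit without them.

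The second comparison, DKO AAV against DKO saline, reads the treatment in DKO mice. All 9 values were positive, from 0.16 ± 0.22 for Slc1a6 to 0.65 ± 0.28 for Neurod1, with a median of 0.36 against -0.00245 over all genes, of which 49.6% were positive. None was called, beside 3.02% of all genes. The granule genes were close to each other at 0.56 ± 0.38 (Cbln3), 0.55 ± 0.29 (Cbln1), 0.65 ± 0.28 (Neurod1, adjusted p = 0.189) and 0.54 ± 0.18 (Zic1, adjusted p = 0.0822). The Purkinje genes stood lower, at 0.24 ± 0.40 (Pcp2), 0.36 ± 0.30 (Car8), 0.34 ± 0.15 (Itpr1) and 0.34 ± 0.14 (Calb1). Within batches, Zic1, Neurod1, Itpr1 and Car8 were higher in DKO AAV in 4 of 4 batches, Cbln1, Cbln3, Pcp2 and Calb1 in 3 of 4, and Slc1a6 in 2 of 4 (-0.22 to 0.75).

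Without the 2 low WT libraries, which enter this comparison through the shared estimate of spread and the sex and batch terms, 3 granule cell genes were called higher in DKO AAV, beside 0.989% of all genes called higher and 3.34% called in either direction. Leaving the 2 out narrows the spread of the genes that set them apart, so these calls are not free of that choice. Zic1 rose by 0.57 ± 0.12 (adjusted p = 0.00637), Neurod1 by 0.69 ± 0.16 (adjusted p = 0.0132) and Cbln1 by 0.59 ± 0.16 (adjusted p = 0.0316), while Cbln3 at 0.60 ± 0.19 (adjusted p = 0.0696) was not called. No Purkinje cell gene was called in that fit, Itpr1 coming nearest at 0.37 ± 0.12 (adjusted p = 0.0630). Without DKO saline replicate 2 as well, Cbln3 was called too, at 0.78 ± 0.19 (adjusted p = 0.0397), beside 0.135% of all genes called higher. Fitting only the compared groups called Cbln1, Cbln3, Zic1, Neurod1 and Itpr1 higher, beside 2.57% of all genes, and leaving out the filter on low counts called these and Car8 and Calb1, beside 1.21%. All 7 DKO AAV mice were above the DKO saline median for Cbln1, Cbln3, Zic1 and Neurod1, and so they were for the Purkinje gene Calb1. Of the 7, 3 were above the highest DKO saline mouse for Zic1, Neurod1 and Calb1, 4 for Cbln1 and 2 for Cbln3. How often this holds among all genes tested was not counted, so it cannot be ranked against them.

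The reference genes of the cerebellum had positive medians in the same comparison. The granule reference list, of which 0 of 11 were called (3 of 11, all higher, without the 2 low libraries, and 0 without DKO saline replicate 2 as well), had a median of 0.42, and the Purkinje reference list, of which 0 of 11 were called, one of 0.27. With the cerebellar index as a term, Neurod1 stood at -0.01 ± 0.14, Zic1 at 0.15 ± 0.08, Cbln1 at -0.17 ± 0.15 and Cbln3 at -0.38 ± 0.22, none called. In the same fit Pcp2 was lower, at -0.78 ± 0.20 (adjusted p = 0.0211), beside 3.24% of all genes called lower, having been 0.24 ± 0.40 without the term. With only the granule index it was -1.02 ± 0.24 (adjusted p = 0.0148), beside 2.92%. The fit with the cerebellar index and without the 2 low libraries gave Pcp2 at -0.50 ± 0.17 (adjusted p = 0.126) and called none of the 9, beside 1.28%. Because the index itself differs between DKO saline and DKO AAV, a difference in cerebellar content and a change shared by all cerebellar genes cannot be told apart.

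**Figure D4:**
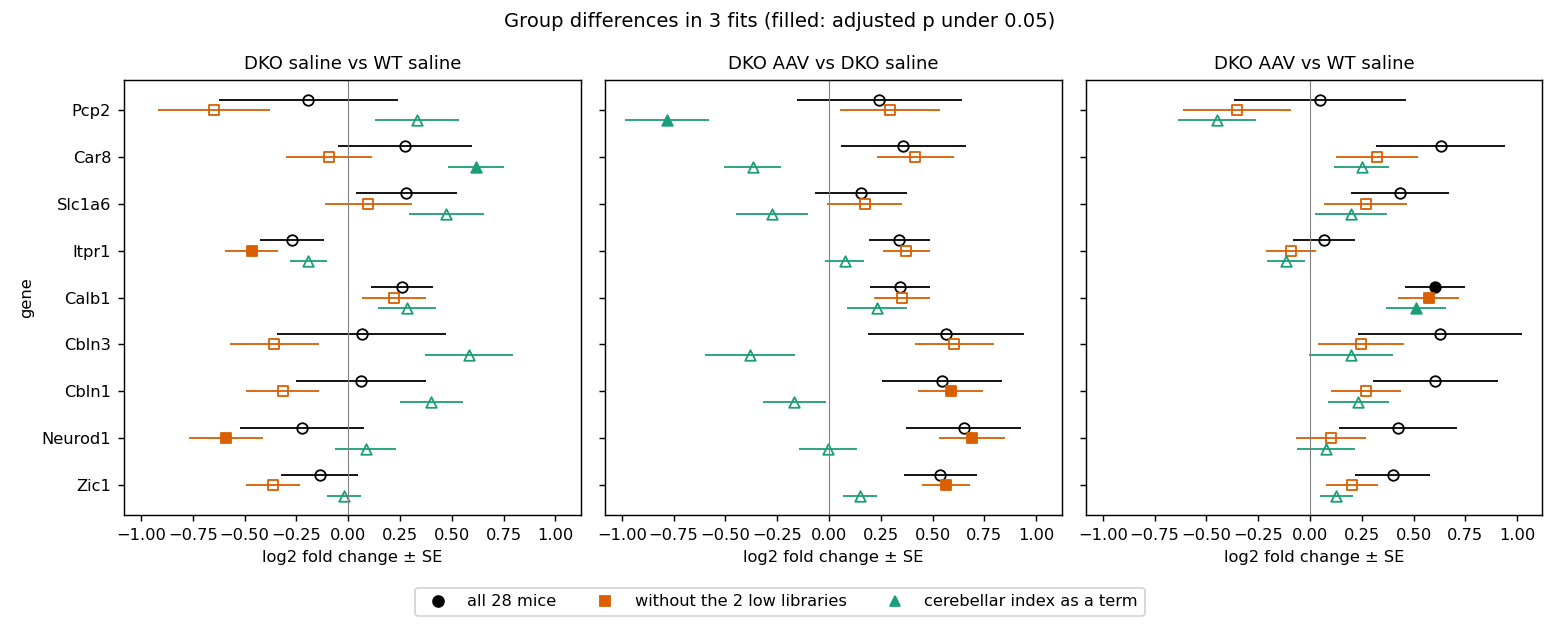
Log2 fold change ± SE of the 9 tested genes in 3 comparisons, each in a fit over all 28 mice (circles), without WT saline replicate 6 and WT AAV replicate 7 (squares) and with the cerebellar reference index as a term (triangles); filled marks have an adjusted p under 0.05. In DKO AAV against DKO saline, Zic1, Neurod1 and Cbln1 are filled only without the 2 libraries and near or below 0.15 with the index, and in DKO AAV against WT saline Calb1 is filled in all 3.

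Against WT saline, DKO AAV mice were called for 1 of the 9 genes, beside 5.25% of all genes, 1.43% being higher. Calb1 rose by a log2 fold change of 0.60 ± 0.15 (adjusted p = 0.0110), from 171 ± 19.7 CPM (SD, n = 7) to 257 ± 39.4. The groups did not overlap, 217 to 324 CPM in DKO AAV against 136 to 190 in WT saline, and DKO AAV was higher in 4 of 4 batches, by 0.38 to 0.70. Neither pattern was counted over all genes tested, so neither can be ranked against them. Calb1 remained called without the 2 low libraries (0.57 ± 0.15, adjusted p = 0.0128, beside 3% of all genes called higher) and with the index as a term (0.51 ± 0.14, adjusted p = 0.0212, beside 3.3%). The call was lost in 1 of 46 alternatives, without batch 3, where the adjusted p was 0.0781 and 0.53% of all genes were called higher. Other genes were called beside it with library totals (Zic1, beside 9.16% of all genes), with no filter on low counts (Cbln1, Cbln3, Zic1, Neurod1 and Car8, beside 1.18%) and with the index without the 2 low libraries (Pcp2, lower at -0.49 ± 0.15, adjusted p = 0.0287, beside 9.62% in either direction). Calb1 stood between these levels in DKO saline, at 0.26 ± 0.15 above WT saline (adjusted p = 0.324), and DKO AAV stood 0.34 ± 0.14 above DKO saline (adjusted p = 0.180), so neither step was called alone. The other genes with large values carried large errors, such as Car8 at 0.63 ± 0.31 (adjusted p = 0.260), Cbln3 at 0.63 ± 0.39 and Cbln1 at 0.61 ± 0.30. Once the 2 low libraries were left out, these were 0.32 ± 0.20, 0.25 ± 0.21 and 0.27 ± 0.17, none called. In the fit with no filter on low counts Car8, Cbln3 and Cbln1 were 0.65 ± 0.108, 0.64 ± 0.108 and 0.62 ± 0.115. Their calls there thus rest on smaller errors at like fold changes.

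In WT mice the vector changed none of the 9 genes by this test. WT AAV against WT saline gave values from 0.09 ± 0.15 (Itpr1) to 0.45 ± 0.24 (Slc1a6, unadjusted p = 0.0706). No gene of 11123 was called by edgeR, DESeq2 or limma, 0% in all, while 254 had an unadjusted p under 0.05 by edgeR. The treatment effect in DKO mice minus that in WT mice was called for 0 of the 9, beside 0.018% of all genes, and stood at 0.43 ± 0.25 for Zic1 and 0.47 ± 0.40 for Neurod1 (adjusted p = 0.525 and 0.681). The larger values in DKO mice are thus not shown to differ from those in WT mice. Sex was called for 0 of the 9, beside 0.045% of all genes, with values from -0.11 to 0.09.

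The partners of the members at the same synapse and in the same calcium pathway were read from 2 lists. Of 10 tested genes of the cerebellin, neurexin and delta receptor synapse, 0 were called in DKO saline against WT saline, and 1 rose in DKO AAV against DKO saline. It was Nrxn3, a neurexin of the presynaptic side, at 0.47 ± 0.13 (adjusted p = 0.0351), from 126 to 173 CPM. Of 16 tested genes of Purkinje calcium signalling, 1 fell in DKO saline against WT saline, the plasma membrane calcium pump Atp2b2 at -0.46 ± 0.09 (adjusted p = 0.00209), beside 6.9% of all genes called. Without the 2 low libraries 4 of the 16 were called lower, and with the index as a term 3. In DKO AAV against DKO saline 2 of the 16 rose, among them the calcium-dependent kinase Camk4 at 0.55 ± 0.13 (adjusted p = 0.0152), beside 3.02% of all genes called. The list medians in that comparison were 0.23 and 0.28. Without the 2 low libraries and DKO saline replicate 2, whose calcium list sum of 4900 CPM was the lowest, Atp2b2 (-0.38 ± 0.10, adjusted p = 0.0191) and Camk4 (0.48 ± 0.10, adjusted p = 0.0179) were still called. Nrxn3 (0.41 ± 0.12, adjusted p = 0.104) was not, and 1 of the 16 calcium genes was called higher in that fit. These genes are also expressed outside the cerebellum, and the summed level of the calcium list was 98.6% and 112% of that of the other mice in the 2 low libraries, so it did not follow the loss of Pcp2.

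Group medians of other content of the libraries differed too. The sum over 8 reactive microglial and astrocytic genes had medians of 610 CPM (430 to 904) with saline and 674 (659 to 766) with vector in WT mice. In DKO mice they were 1560 (1370 to 3630) with saline and 896 (805 to 1060) with vector, the value of 3630 being that of DKO saline replicate 2. Against WT saline all 8 were called higher in DKO saline, and against DKO saline all 8 were called lower in DKO AAV. The sum over 11 brainstem genes, of which 2 passed the filter, had medians of 54.2, 40.8, 14.8 and 35.9 CPM in that order, and that over 9 cortical genes 651, 702, 698 and 772. All groups overlapped in both. The brainstem ranges were 9.12 to 83.1, 10.1 to 53.2, 7.37 to 150 and 19.4 to 68.4 CPM. The cortical ones were 524 to 1000, 577 to 894, 316 to 813 and 696 to 847. The part of these differences in the results above was not tested.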

How the data were processed

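Per the labels' protocols, RNA came from frozen hemibrain powder and went into QuantSeq libraries (Lexogen), which read 3' ends and carry molecular identifiers. Per the submitters' processing notes, the build was GRCm38.p6 and the tools were STAR, edgeR 3.40.2, R 4.2, FastQC 0.11.5 and MultiQC 1.0. Not given in the sources used here are the counter, the annotation release and whether strand was used.

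The deposited counts, rounded by the authors to at most 2 significant digits in 100% of 1506428 values, were the values tested. The deposited normalized CPM is a signal that the authors scaled by library total and normalization factor, a ratio deposited in the sample sheet, and it was used only in 1 alternative. Current symbols were matched for 53620 of 53801 genes. Groups, sex and batch came from the labels; replicate numbers only name the mice, which are separate animals.

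edgeR 4.0.16 in R 4.3.3 fitted all 28 libraries with TMM scaling and terms for group, sex and batch, after filterByExpr (minimum count 10, minimum total 15) had left 11123 genes. Each SE was computed as the fold change (log2) divided by the square root of the F statistic. The fit's common biological variation was 13.6%, and library totals of 1164637 to 2389815 set the counting precision. The script was tested on simulated data. Log2 CPM used a prior count of 2. Correlations used deviations from group means, permuted within groups 100000 times (two-sided), with Benjamini-Hochberg adjustment over 20 relations. Poisson intervals cover counting error only. Promoter sequences are RefSeq's.

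The 10 genes, the lists and the rule for named genes were chosen with earlier results of these data known. Named are the 10 genes, up to 3 called genes per other list, 4 reference markers and the 5 genes most like each cell type's mean at a mean CPM of at least 5. Of the markers, Fat2, Ppp1r17 and Homer3 are counted but not described, as are called genes of the reactive list. One called gene of the calcium list is not reported here. Alternatives were 46 in number, among them DESeq2, limma, RLE size factors, no filter and each mouse left out.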

Additional observations from a re-analysis of the deposited data

Results flagged for a closer look

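In 7 of the 40 sets of 7 values (10 genes in 4 groups), the lowest mouse was far from the other 6, by a rule that flags about 1 in 20 single sets by chance. The sets share mice and their genes go together, so the number of flags cannot be set against that rate. All 7 flags fell on the 2 libraries of low cerebellar content, 2 on WT saline replicate 6 and 5 on WT AAV replicate 7. The same genes had already set these libraries apart, so the flags are not new support. In WT saline replicate 6 they were Cbln1 at 12.1 CPM, with the nearest mouse at 88.7, and Neurod1 at 12.1 CPM, with the nearest at 81.2. In WT AAV replicate 7 they were Cbln3 at 15.5 CPM (nearest 176), Cbln1 at 20.7 (nearest 113), Neurod1 at 25 (nearest 101), Zic1 at 130 (nearest 264) and Slc1a6 at 7.77 (nearest 27.4). The Pcp2 values of the same libraries, 0.673 and 4.32 CPM with the next mice at 47.1 and 54.9, did not pass the threshold, the other 6 mice of each group being widely spread. No DKO mouse was flagged for any of the 10 genes.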

How the results depend on the processing

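Calls on these genes depended on 2 libraries and on how cerebellar content was treated. The 2 libraries were set apart by low levels of these genes, so the fits without them are not free of that choice. For the genes it called, the fit with no filter on low counts gave smaller SEs at like fold changes. In DKO saline against WT saline, 0 genes were called, against 1 with the cerebellar index as a term, 2 without the 2 low libraries, 4 without batch 4, and, among alternatives chosen after seeing the data, 3 with the granule index, 1 with the Purkinje index and 1 without the 2 low libraries and DKO saline replicate 2. Without batch 4, which holds both low libraries, the 4 were Zic1, Neurod1, Pcp2 and Itpr1, all lower. In DKO AAV against DKO saline, 0 were called, against 5 in a fit of the 2 groups alone, 7 with no filter on low counts, 1 with the index, 3 without the 2 low libraries, 1 with the granule index and 4 without these 2 and DKO saline replicate 2; leaving out 1 mouse gave 0 to 1, the 1 being Zic1 without DKO saline replicate 6, WT saline replicate 6 or WT AAV replicate 7. In DKO AAV against WT saline, 1 was called, against 2 with library totals, 6 with no filter, 0 without batch 3 and 2 with the index and without the 2 low libraries, a fit also chosen after seeing the data; leaving out 1 mouse gave 1 throughout. Counts over the 9 genes stayed at 0 in WT AAV against WT saline, in the treatment difference between genotypes and between the sexes under all alternatives run. Pcp2 changed sign with a call in 3 fits, from 0.24 to -0.78 (index) and -1.02 (granule index) in DKO AAV against DKO saline, and from 0.05 to -0.49 (index, without the 2 low libraries) in DKO AAV against WT saline. The cause was not tested. Counts over all genes ran from 245 to 1183 (767 as reported), 23 to 710 (336), 0 to 10 (0) and 189 to 1217 (584) in the 4 comparisons, 0 to 156 (2) for the treatment difference and 4 to 20 (5) for sex. With library totals in place of TMM, the median of all genes shifted to 0.12 in DKO saline and 0.15 in DKO AAV against WT saline, and 1000 of the calls were higher and 183 lower (403 and 364 as reported), and 1019 and 198 (159 and 425). The signs of the 9 genes were the same under both scalings in these comparisons. No paired analysis was possible because the labels give no replicate numbers; the batches they do give were a term in the fit. Depth limits Zic2 and Slc1a6 most.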

Other observations

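Genes listed for other cell types of the cerebellum showed a different pattern from granule and Purkinje cell genes. Of 5 Bergmann glia genes, 0 were called in any comparison in the fit over all 28 mice, and 1 was called lower in DKO AAV than in WT saline with the index as a term, without the 2 low libraries or without these and DKO saline replicate 2. That last fit also called 1 of the 5 lower in DKO saline, against WT saline. Their summed level in the 2 low libraries was 82.3% and 91.6% of that of the other mice. Of 4 tested genes of cerebellar interneurons and unipolar brush cells, 1 was called in the fit over all 28 mice, the sorting receptor Sorcs3. It rose in DKO AAV against WT saline by a log2 fold change of 0.63 ± 0.18 (adjusted p = 0.0316, edgeR), from 13.6 to 21.2 CPM. Beside it, 1.43% of all genes were called higher. Without the 2 low libraries and DKO saline replicate 2, Sorcs3 was 0.82 ± 0.17 (adjusted p = 0.00152). The summed level of that list was 125% and 96.4% of that of the other mice in the 2 low libraries, so it did not follow the loss of Pcp2. Which cells the Sorcs3 tags came from was not tested. Among 11 tested granule reference genes, the NMDA receptor subunit gene Grin2c was the only one called lower in DKO saline against WT saline over all mice. It stood at -0.49 ± 0.13 (adjusted p = 0.0183, edgeR), and at -0.71 ± 0.12 (adjusted p = 0.000145) without the 2 low libraries and DKO saline replicate 2. Grin2c kept 56.1% and 79.5% in the 2 low libraries, where Gabra6 kept 0.931% and 12.1%, so it followed granule cell content only in part. Which cells the change came from was not tested. Of 11 Purkinje reference genes, 0 were called in the fit over all 28 mice without the index.

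Lists of other brain regions gave few calls over all 28 mice. In DKO saline against WT saline, the cortical gene Cux2 was lower at -0.54 ± 0.12 (adjusted p = 0.00291, edgeR, 1 of 9 tested), and at -0.46 ± 0.13 (adjusted p = 0.0276) without the same 3 libraries. The brainstem gene Hoxa5 was lower at -1.88 ± 0.58 (adjusted p = 0.0446, 1 of 2 tested), with a larger value that was not called without them (-2.54 ± 0.80, adjusted p = 0.0507) and a similar one without the 2 low libraries alone (-1.86 ± 0.61, adjusted p = 0.0501). Th, the enzyme of dopamine synthesis, was higher at 1.70 ± 0.48 (adjusted p = 0.0250, 1 of 4 tested in the olfactory list), and was not called without them (1.55 ± 0.54, adjusted p = 0.0814), though it was without the 2 low libraries alone (2.23 ± 0.52, adjusted p = 0.00551). Of 8 thalamic, 9 striatal and 3 tested dentate gyrus genes, 0 were called in any comparison in the fit over all 28 mice without the index. With the index, or without the 2 low libraries, 1 thalamic and 2 striatal genes were called higher in DKO AAV than in WT saline.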
